A study of Mus musculus with 6 samples.

Results

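The cytosolic ribosomal protein genes were followed in N18-Fms cells, murine prostate tumor cells made to carry the CSF-1 receptor (CSF-1R, encoded by c-fms), with and without stimulation by CSF-1. Genes were taken by name: Rpl or Rps followed by a number and at most one letter or a suffix such as x or l, which leaves out the S6 kinases and the mitochondrial ribosomal proteins. On the array, 76 gene names with 171 probes met this rule, and 74 genes had a probe well above background on all 6 arrays, 30 of the small and 44 of the large ribosomal subunit, of 36028 genes with a usable probe and 24649 genes tested. The other two were Rpl39l and Rpl3l, paralogs of Rpl39 and Rpl3 known from testis and muscle, which were well above background on 0 of 6 arrays.

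The study set unstimulated cells against cells stimulated with recombinant murine CSF-1 at 100 ng/ml for 24 h or 48 h, with 2 single-color Agilent mouse arrays in each of 3 groups, to find genes that answer to CSF-1R activation. N18-CFMS is the name of the cells in the sample labels, where the unstimulated cells are called Control and marked as vehicle treated. The cells of all groups were a luciferase-expressing clone of C2H, a line from a prostate tumor of the TRAMP mouse, transduced with c-fms by a retrovirus, sorted for the receptor and grown with serum and dihydrotestosterone. They are 1 clone, they also secrete CSF-1 of their own, and the RNA came from 2 independent experiments. The labels do not tie an array to an experiment, so the p-values measure the spread between these arrays. The methods give shorter stimulation times than the labels, and the labelled times are used here.

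Ribosomal proteins assemble with ribosomal RNA in the nucleolus into a small subunit, which reads the mRNA, and a large subunit, which joins the amino acids. Because each ribosome holds about the same set of proteins, their mRNAs are abundant and are made in proportion to each other. Most of these mRNAs begin with a terminal oligopyrimidine (TOP) tract, a C followed by an unbroken run of pyrimidines, through which growth signals relayed by mTORC1 govern their translation. Control at that step changes how the mRNAs are used and not necessarily how much of them an array measures.

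The start of the transcript is the feature that marks this family, so a few annotated starts are shown. All 74 genes were found in the RefSeq gene table, and 55 had a start window in the RefSeq promoter table (build GRCm38.p6), with 66 windows in all. Each sequence runs from 10 bases before the annotated start to 20 bases from it on, 5′ to 3′, and capitals mark the unbroken pyrimidine run at the start itself. At the annotated starts shown the first 5 genes begin with a tract, and the last 3, among them the paralog of Rps27, do not.
Rps6, chr4:86857348-86857377, minus strand: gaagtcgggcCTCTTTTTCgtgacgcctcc
Rpl38, chr11:114668570-114668599, plus strand: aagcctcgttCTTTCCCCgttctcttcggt
Rps18, chr17:33955646-33955675, minus strand: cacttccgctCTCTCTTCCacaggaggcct
Rps21, chr2:180257369-180257398, plus strand: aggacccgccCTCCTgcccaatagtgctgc
Rps27, chr3:90213629-90213658, minus strand: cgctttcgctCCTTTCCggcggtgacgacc
Rps27l, chr9:66946076-66946105, plus strand: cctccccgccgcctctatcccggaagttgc
Rpl4, chr9:64173377-64173406, plus strand: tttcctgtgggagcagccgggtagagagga
Rpl10l, chr12:66284382-66284411, minus strand: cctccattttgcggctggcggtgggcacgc
A C followed by at least 4 pyrimidines stood at an annotated start of 12 of the 55 genes (21.8%), against 3.01% of the 27025 genes in the table. A run of at least 8 pyrimidines lay somewhere in the 30-base window of 22 of the 55 (40%), against 13% of all genes. In the full promoter window on either strand, CGGAAG, the core of the motif bound by ETS factors, was present in 39 of the 55 (70.9%, against 18.8% of all genes). ATGGCG, the core of the YY1 motif, was present in 18 (32.7% against 10.2%) and the E-box CACGTG in 6 (10.9% against 8.09%). These are matches of letters to one annotated start or window, and they do not show a bound site.

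Expression is given as log2 of the background-subtracted spot signal less the 75th percentile of the array, so that 0 is the brightness of the probe at that percentile. Between 58.7% and 72.0% of the 59305 spots of each array were well above background, and 0 were saturated. The 24 h replicate 1 array was on a different slide from the other 5. Csf1r was well above background on all 6 arrays, as were Krt8, Krt5 and Krt14 among the prostate epithelial markers, whereas Cdh1 was so on 0. All 6 fibroblast markers and 4 of 7 blood cell markers were well above background on every array. The summed signal of the fibroblast markers, in units of the array's 75th percentile, was 449 and 466 in the Control arrays, 354 and 367 at 24 h and 317 and 342 at 48 h, a sum that Vim and Col1a1 dominate. Of these 6 markers 2 were called lower at both times (Col1a1 and Col3a1), and 2 were called higher at 24 h (Dcn and Pdgfra) and 1 at 48 h (Dcn, from -3.27 and -2.50 in Control to -0.34 and 0.12). The summed signal of the blood cell markers was 44.5 and 39.8, then 37.6 and 30.1, then 34.0 and 24.6, most of it from Itgam. Of those 7 markers 0 were called lower, and Cd14 was called higher at both times. The part of these markers in the values below was not tested.

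No ribosomal protein gene passed the test for a difference between CSF-1-stimulated and unstimulated cells, and most had slightly lower values after stimulation. At 24 h, 0 of 74 were called at an adjusted p under 0.05 (limma, Benjamini-Hochberg over all genes tested), where 14% of all genes tested were called. At 48 h, again 0 of 74 were called, against a background of 13.9%. The smallest adjusted p among them was 0.174 at 24 h and 0.057 at 48 h, the latter for Rps27l. At an unadjusted p under 0.05, 0 genes differed at 24 h. At 48 h, 21 of 74 were lower at that level (background 18.8%) and 0 were higher (background 12.1%). That count of 21 was 6 with quantile normalization and 4 with the percentile taken over detected probes. The share of all genes at that level in these 2 settings was not counted. It also changed with the array left out, where the median log2 difference of the 74 genes at 48 h lay between -0.32 and -0.14. At the study's thresholds, an unadjusted p under 0.05 and a 2-fold difference, 0 of 74 were called at either time, against 7.66% and 6.46% of all genes. The methods' t-test of the 2 groups alone gave 3 genes at 24 h and 13 at 48 h unadjusted. The share of all genes at that level by the t-test was not counted. After adjustment the t-test called 0 of the 74 and 0 of all genes tested at either time.

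The size of the differences was small and their sign largely shared. The median fitted log2 difference from Control was -0.13 at 24 h, or 8.68% less signal, and -0.22 at 48 h, or 14.2% less, where the medians over all genes tested were 0.037 and -0.044. The fitted difference was below 0 for 70 of 74 genes at 24 h (background 45.5%) and for 72 of 74 at 48 h (background 55.1%). All 74 had a 95% interval of the difference that stayed within 2-fold either way at both times (background 71.9% and 73.9%). For 69 genes at 24 h and 50 at 48 h the interval stayed within 1.5-fold (background 36.7% and 35.2%). The 2 array values lay below both Control values for 38 of 74 genes at 24 h and for 60 at 48 h, against 27.7% and 35% of all genes. Both lay above both Control values for 2 genes at 24 h (Rps20 and Rpl10l, background 31.2%) and for 1 at 48 h (Rpl10l, background 23.8%). Both times share the same 2 Control arrays.

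The same was seen array by array. The median level over the 74 genes was 7.90 and 7.74 in the Control arrays, 7.71 and 7.68 at 24 h, and 7.52 and 7.52 at 48 h. The medians of the groups did not overlap, but the 2 Control arrays were further apart than the means of the Control and 24 h groups. Control replicate 1 was above Control replicate 2 for 71 of 74 genes, by a median of 0.18, against a median of 0.062 over all genes tested. Without Control replicate 1 the median differences were -0.030 at 24 h and -0.14 at 48 h, and without Control replicate 2 they were -0.21 and -0.32. The SD over genes of the difference between the Control replicates was 0.0997 among the 74 and 0.393 over all genes tested. Each level is relative to a percentile of the same array, so the values do not give an amount of these mRNAs per cell. In bulk RNA, a small difference in all cells and a larger one in some of them cannot be told apart.

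**Figure D1:**
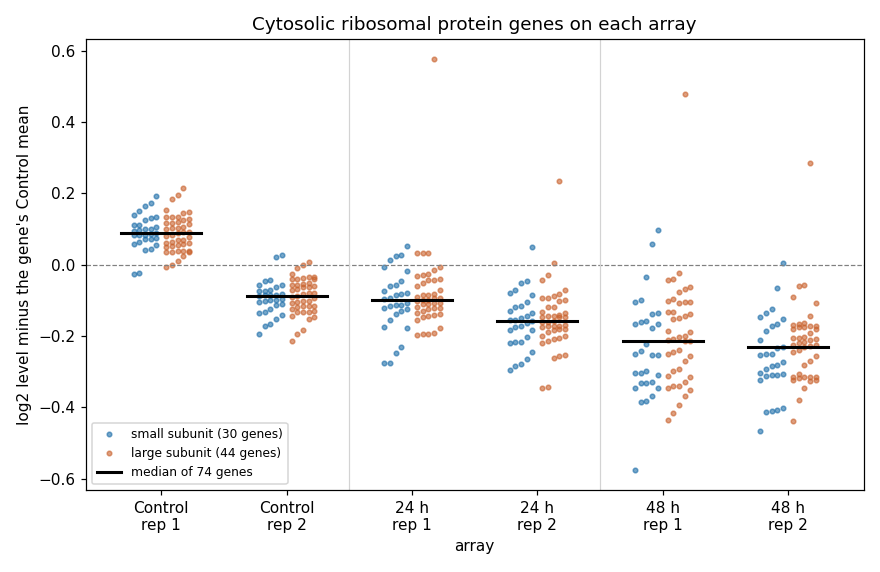
Log2 level of each of the 74 genes on each array, less that gene's mean over the 2 Control arrays, with small-subunit genes in blue, large-subunit genes in orange and black bars at the median of all 74. The cloud of Control replicate 1 lies above that of replicate 2, the 24 h arrays overlap Control replicate 2, both 48 h clouds are centred lowest, and the single high point at 24 h and 48 h is Rpl10l.

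Between the subunits the values were alike in size. The median difference at 24 h was -0.13 for both the 30 small-subunit and the 44 large-subunit genes. At 48 h it was -0.27 for the small subunit and -0.22 for the large. Of the small-subunit genes 29 had a fitted difference below 0 at 48 h, and of the large-subunit genes 43.

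Rps27l, a paralog of Rps27 known as a target of p53, had the lowest fitted difference at both times. Its level was 6.24 and 5.99 in Control, 5.84 and 5.83 at 24 h, and 5.54 and 5.65 at 48 h. The 3 groups did not overlap. The difference was -0.28 ± 0.13 (SE) at 24 h, with an adjusted p of 0.22, and -0.52 ± 0.13 at 48 h, with an adjusted p of 0.057 by limma. Over 22 other ways of processing or leaving out an array, its adjusted p at 48 h ran from 0.00976 to 0.246, and it was called in 4 of them. Rps27 itself read 7.52 and 7.32, then 7.34 and 7.31, then 7.17 and 7.24, a difference of -0.22 ± 0.12 at 48 h that missed the threshold (adjusted p = 0.283). The annotation of the Rps27 probe places it on chromosome 9, away from the gene on chromosome 3, and likewise that of Rps29 on chromosome 2 instead of 12. Without these genes the other 72 had 0 calls and medians of -0.13 and -0.22. Only chromosomes were compared, so a probe among the 72 may still lie away from its gene. The Rps2 probe is annotated at position 42864841 of chromosome 17 in mm9, and the Rps2 start window at 24720053 in GRCm38.p6.

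Rpl4, a protein that lines the exit tunnel of the large subunit, came next at 48 h. Its level was 7.20 and 7.00 in Control, 6.91 and 6.76 at 24 h and 6.67 and 6.66 at 48 h. The groups did not overlap, and the difference at 48 h was -0.44 ± 0.13 (limma adjusted p = 0.082). Rps21, a small-subunit protein, read 6.68 and 6.35, then 6.27 and 6.22, then 6.13 and 6.10. Its Control arrays were further apart than the 24 h and 48 h groups, and the difference at 48 h was -0.40 ± 0.14 (limma adjusted p = 0.132).

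Rpl10l was the only one of the 74 with a fitted difference above 0.1, and its probe was the dimmest of them. It is a copy of Rpl10 without introns, known from testis. Its level was -3.10 and -3.53 in Control, -2.74 and -3.08 at 24 h, and -2.84 and -3.03 at 48 h. The stimulated arrays were all above the Control arrays, by 0.41 ± 0.20 at 24 h and 0.38 ± 0.20 at 48 h, with adjusted p of 0.25 and 0.275 by limma. Rpl10 read 9.40 and 9.24, then 9.21 and 9.11, then 9.28 and 9.09, and its groups overlapped at 48 h (difference -0.14 ± 0.13).

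The flattest genes were Rps20, Rps28 and Rpl39. Rps20 read 8.67 and 8.71 in Control, 8.72 and 8.74 at 24 h and 8.79 and 8.69 at 48 h, a difference of 0.051 ± 0.11 at 48 h whose 95% interval ran from -0.21 to 0.32. Rps28 differed from Control by -0.0034 ± 0.12 at 48 h, with an interval from -0.30 to 0.30. Rpl39 differed by 0.018 ± 0.13 at 24 h and -0.048 ± 0.13 at 48 h. Rps2 differed by 0.0019 ± 0.11 at 24 h and -0.16 ± 0.11 at 48 h.

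Members with known duties outside or beyond the core of the ribosome lay within the range of the rest. Rps6, the ribosomal target of the S6 kinases, read 7.95 and 7.75, then 7.72 and 7.59, then 7.51 and 7.44, a difference of -0.38 ± 0.12 at 48 h (limma adjusted p = 0.111). Its groups did not overlap. Rpl5 and Rpl11, which bind MDM2 when ribosome assembly is disturbed, differed by -0.31 ± 0.14 and -0.28 ± 0.11 at 48 h (limma adjusted p = 0.202 and 0.145). Rps19, the gene most often mutated in Diamond-Blackfan anemia, differed by -0.35 ± 0.12 (limma adjusted p = 0.11). Rpl38, which in the embryo is needed for the translation of Hox mRNAs, read 8.79 and 8.72, then 8.72 and 8.73, then 8.65 and 8.65, a difference of -0.11 ± 0.10 (limma adjusted p = 0.551). Rpl13a, which can leave the ribosome to silence inflammatory mRNAs, read 6.96 and 6.59, then 6.69 and 6.61, then 6.65 and 6.72, so that the groups overlapped. Rps18, often used as a reference gene, differed by -0.12 ± 0.16 at 24 h and -0.31 ± 0.16 at 48 h (limma adjusted p = 0.675 and 0.265).

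The remaining named genes had paralogs on the array or very bright or dim probes. Rpl3, Rpl7, Rps4x, Rpl36a and Rpl22 differed from Control at 48 h by -0.31, -0.30, -0.16, -0.22 and -0.11. Rpl41, Rpl35 and Rps12, with probes among the brightest, differed by -0.14, -0.21 and -0.22. None of these 8 passed the test.

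**Figure D2:**
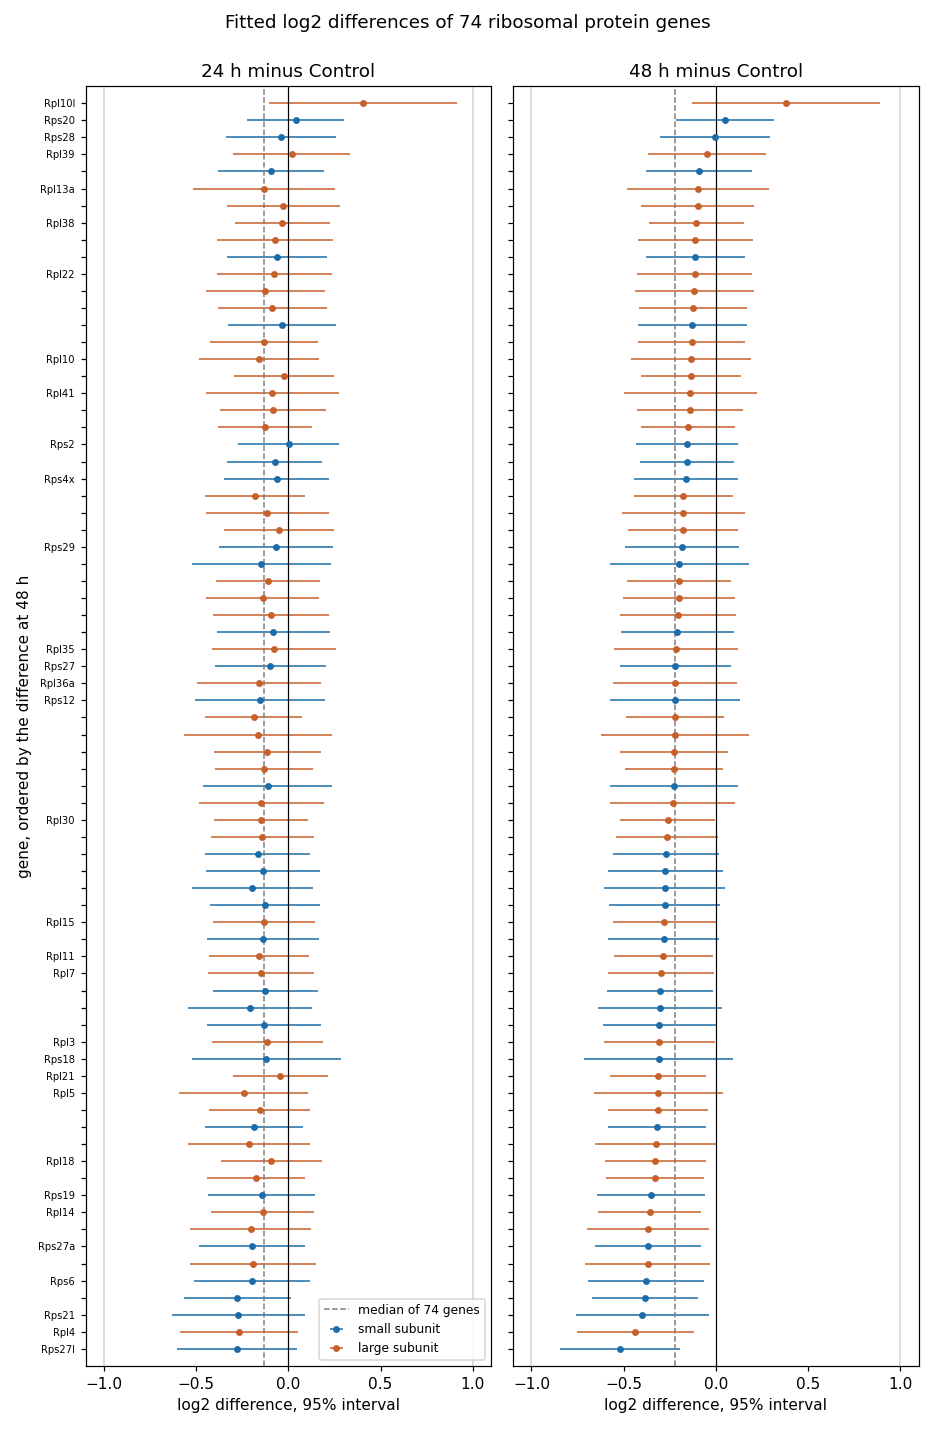
Fitted log2 difference from Control of the 74 genes at 24 h (left) and 48 h (right) with 95% intervals from limma, ordered by the difference at 48 h, small-subunit genes in blue and large-subunit genes in orange. The dashed line marks the median, -0.13 at 24 h and -0.22 at 48 h, the grey lines mark 2-fold, the genes named in the text are labelled, and every interval lies between the grey lines, from Rpl10l at the top to Rps27l at the bottom.

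At 48 h most values were a little below those at 24 h on the 75th percentile scale. Of the 74 genes 0 were called, as were 0% of all genes tested, and 1, Rpl21, had an unadjusted p under 0.05 (background of lower genes 9.22%). At that level 0 were higher (background 4.37%), and 0 were also 2-fold apart (background 2.27%). The methods' t-test of these 2 groups gave 17 genes unadjusted, where the share of all genes was not counted, and 0 adjusted. The median was -0.11 and the fitted difference was below 0 for 66 of 74 genes, where the median of all genes tested was -0.085 and 65.1% were below 0. Both 48 h values lay below both 24 h values for 51 of 74 genes (background 33.7%). The 95% interval stayed within 2-fold for all 74 (background 80.9%) and within 1.5-fold for 73 (background 49%). Centring each array on its median turned this direction, to a median of 0.077 with 7 of 74 below 0, and moved the median of all genes to 0.099. Rpl21 read -0.37 and -0.45 in Control, -0.45 and -0.45 at 24 h and -0.71 and -0.74 at 48 h, a difference of -0.27 ± 0.10 between the stimulated groups (limma adjusted p = 0.351). Rpl18, at -0.24 ± 0.11, and Rps27l, at -0.24 ± 0.13, followed.

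Genes whose annotated start carried the tract had medians near those of the others. The 12 genes with it had median differences of -0.13 at 24 h and -0.28 at 48 h. The 43 genes with a window and no tract at the start had medians of -0.13 and -0.22, and the 19 without a window -0.13 and -0.23. These classes rest on the annotated start base, so a gene counted without the tract may still have it. Rpl27a and Rpl7a, with runs of 16 and 7 pyrimidines that began with T, were counted without it.

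The probes of a gene mostly gave close values. Of the 171 probes, 165 were well above background on all arrays, and 52 genes had several. The range between the probes of a gene had a median of 0.071 at 24 h and 0.081 at 48 h. Each probe was also fitted on its own in the whole table of 34814 probes. At 24 h 2 of the 165 were called, 1 each for Rpl15 and Rpl22, where 4413 of the 34814 were called. At 48 h 6 of the 165 were called, where 4049 of the 34814 were. Among the 6 were 1 each for Rpl14, Rpl15, Rpl21, Rpl30 and Rps27a. The called probes of the ribosomal protein genes were all lower than in Control, and none was the brightest probe of its gene. The Rpl30 probe differed by -0.67 ± 0.11 at 48 h, where the brightest Rpl30 probe differed by -0.26 ± 0.11. The Rpl22 probe differed by -0.52 ± 0.12 at 24 h and 0.077 ± 0.12 at 48 h. The 17 probes with a level under 5 had a median of -0.38 at 48 h, and the 148 brighter ones -0.26. Ribosomal protein genes have many near-identical processed copies in the genome, and whether a probe also read such copies was not tested.

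**Figure D3:**
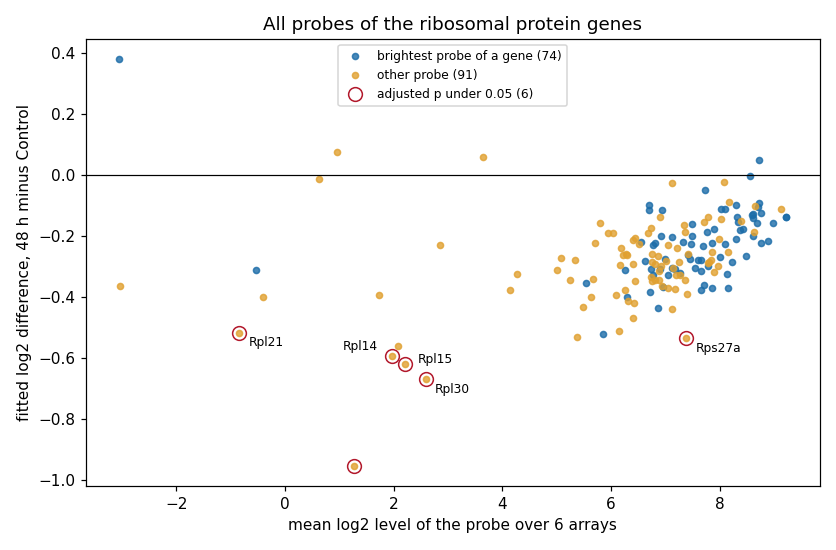
Mean log2 level over 6 arrays (horizontal axis) against the fitted log2 difference at 48 h (vertical axis) for 165 probes of the 74 genes, with the brightest probe of each gene in blue, other probes in orange and a red ring at the 6 with an adjusted p under 0.05. The bright probes form 1 cloud, with a median of -0.26 for the 148 with a level of 5 or more. The median of the 74 chosen probes, bright and dim, is -0.22. Of the ringed probes 5 are among the dim ones, the Rpl30 probe at -0.67 among them.

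Ribosomal proteins outside the naming rule included paralogs that passed the test. Of 10 such genes 1 was called lower at 24 h and 2 at 48 h, where 5.98% and 7.37% of all genes tested were called lower. Rpl7l1, a paralog of Rpl7, read 1.19 and 1.07 in Control, 0.56 and 0.68 at 24 h and 0.47 and 0.49 at 48 h. It fell by 0.52 ± 0.11 at 24 h and by 0.65 ± 0.11 at 48 h (limma adjusted p = 0.042 and 0.024). Rpl22l1, a paralog of Rpl22, read 5.77 and 5.42, then 5.08 and 4.96, then 4.64 and 4.66. Its difference at 24 h was -0.57 ± 0.15 (limma adjusted p = 0.065), and it fell by 0.95 ± 0.15 at 48 h (limma adjusted p = 0.02). Rpl36al, a paralog of Rpl36a, differed by -0.47 ± 0.13 at 48 h (limma adjusted p = 0.067). The stalk proteins Rplp0, Rplp1 and Rplp2, the small-subunit proteins Rpsa and Gnb2l1 (the scaffold RACK1), and the ubiquitin-like fusion Fau had differences between -0.27 and -0.030 at 48 h, and none passed the test. With 1 array left out, fewer of all genes tested were called lower at both times. The call among these 10 genes at 24 h was lost whichever array it was, and those at 48 h in some of these fits. Their median difference then lay between -0.17 and -0.033 at 24 h and between -0.30 and -0.10 at 48 h.

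The genes that build ribosomes gave more calls than the ribosomal proteins. Of 69 ribosome biogenesis genes, 21 fell at 24 h and 37 at 48 h and 0 rose, where 5.98% and 7.37% of all genes tested were called lower and 8% and 6.56% higher, and their median differences were -0.48 and -0.62. Nat10, which acetylates ribosomal RNA, read 2.09 and 2.18 in Control, 0.96 and 1.18 at 24 h and 0.89 and 0.78 at 48 h. It fell by 1.06 ± 0.13 and 1.30 ± 0.13 (limma adjusted p = 0.0095 and 0.0056). Rrp12, a factor in the maturation and export of both subunits, fell by 0.99 and 1.22, and Dimt1, an rRNA methyltransferase, by 0.76 and 1.01. With 1 array left out, fewer genes of the list were called lower at both times, as were fewer of all genes tested. The median of the list then stayed between -0.57 and -0.39 at 24 h and between -0.64 and -0.54 at 48 h.

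Of all genes tested 5.98% were called lower and 8% higher at 24 h, and 7.37% and 6.56% at 48 h. RNA polymerase I, which transcribes the ribosomal RNA genes, had 4 of 15 genes called lower at each time and 0 higher. Its subunit Cd3eap fell by 1.15 ± 0.12 at 24 h and by 1.01 ± 0.12 at 48 h (limma adjusted p = 0.00703 and 0.00939). Polr1b fell by 0.65 and 0.69, and Znrd1 by 0.45 and 0.57. The mitochondrial ribosomal proteins, made in the cytosol for the ribosome of another compartment, had 8 of 75 genes called lower at 24 h and 24 at 48 h, 0 called higher, and medians of -0.30 and -0.41. Mrps26 fell by 0.68 and 0.70, Mrpl3 by 0.61 and 0.73, and Mrps27 by 0.51 and 0.81. With 1 array left out, fewer genes of both lists were called lower at both times, as were fewer of all genes tested. The median of the mitochondrial list then lay between -0.37 and -0.27 at 24 h and between -0.45 and -0.34 at 48 h. That of the polymerase list lay between -0.34 and -0.21 at 24 h and between -0.48 and -0.34 at 48 h.

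Among 35 translation initiation genes 4 fell at 24 h and 8 at 48 h, where 5.98% and 7.37% of all genes tested were called lower. The medians of the list were -0.27 and -0.33. Eif2b1, of the exchange factor for eIF2, fell by 0.58 and 0.76, Eif3j by 0.60 and 0.72, and Eif2s3x, a subunit of eIF2, by 0.48 and 0.62. With the mean over its probes in place of the brightest, Eif2s3x differed by -0.11 and -0.058 (limma adjusted p = 0.562 and 0.796). Of 14 genes of elongation, termination and other TOP mRNAs 2 fell at 24 h and 4 at 48 h, beside the same shares of all genes. Gspt1, a release factor, fell by 0.59 and 0.67, and Eef1d, of the exchange factor for eEF1A, by 0.46 and 0.49. With 1 array left out, fewer genes of either list were called lower at both times, as were fewer of all genes tested. The median of the initiation list then lay between -0.27 and -0.19 at 24 h and between -0.37 and -0.29 at 48 h. That of the elongation list lay between -0.25 and -0.13 at 24 h and between -0.42 and -0.27 at 48 h.

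Of the regulators of this program, a list of 24 mTORC1 and S6 kinase genes had 4 called lower and 1 higher at 24 h and 2 lower and 2 higher at 48 h, where 5.98% of all genes were lower and 8% higher at 24 h and 7.37% and 6.56% at 48 h. The genes called higher were Rps6ka3 at 24 h and Rps6ka2 and Rptor, the scaffold of mTORC1, at 48 h, chosen for mention after their values were seen. Rps6ka3 rose by 0.73 ± 0.11, Rps6ka2 by 1.05 ± 0.15 and Rptor by 0.85 ± 0.14 (limma adjusted p = 0.016, 0.0158 and 0.0198). Deptor, an inhibitor of mTOR, read 0.66 and 0.74 in Control, -0.44 and -0.47 at 24 h and 0.013 and -0.16 at 48 h. It fell by 1.16 ± 0.12 and 0.77 ± 0.12 (limma adjusted p = 0.00618 and 0.017). Rps6kb1, the S6 kinase, fell by 0.59 and 0.58. With the mean over a gene's probes, Deptor differed by -0.52 and -0.26 and Rps6kb1 by -0.29 at 24 h, and these 3 values missed the threshold (limma adjusted p = 0.14, 0.444 and 0.384). Of 9 genes of the MYC network, Mxd1, a MAX partner that opposes MYC, read -0.53 and -0.14, then 1.58 and 2.10, then 1.46 and 2.31. It rose by 2.18 ± 0.34 and 2.22 ± 0.34 (limma adjusted p = 0.018 and 0.018), and Mxd3 fell by 0.76 and 0.66. Myc differed by -0.37 ± 0.12 and -0.32 ± 0.12 (limma adjusted p = 0.109 and 0.149). Without Control replicate 1, fewer genes of the mTORC1 list were called in either direction at both times, and the MYC network kept no call. Fewer of all genes tested were called in that fit too. With 1 array left out, the median of the mTORC1 list lay between -0.32 and -0.23 at 24 h and between -0.25 and -0.12 at 48 h. That of the MYC network lay between -0.28 and 0.11 at 24 h and between -0.28 and -0.072 at 48 h. Mxd1 missed the threshold at both times without either Control array, at 24 h without either 24 h array and at 48 h without 48 h replicate 2, with differences of 1.80 to 2.44 in these fits. No gene of any of these lists was called between 24 h and 48 h, and whether the lists differ from the ribosomal proteins was not tested.

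**Figure D4:**
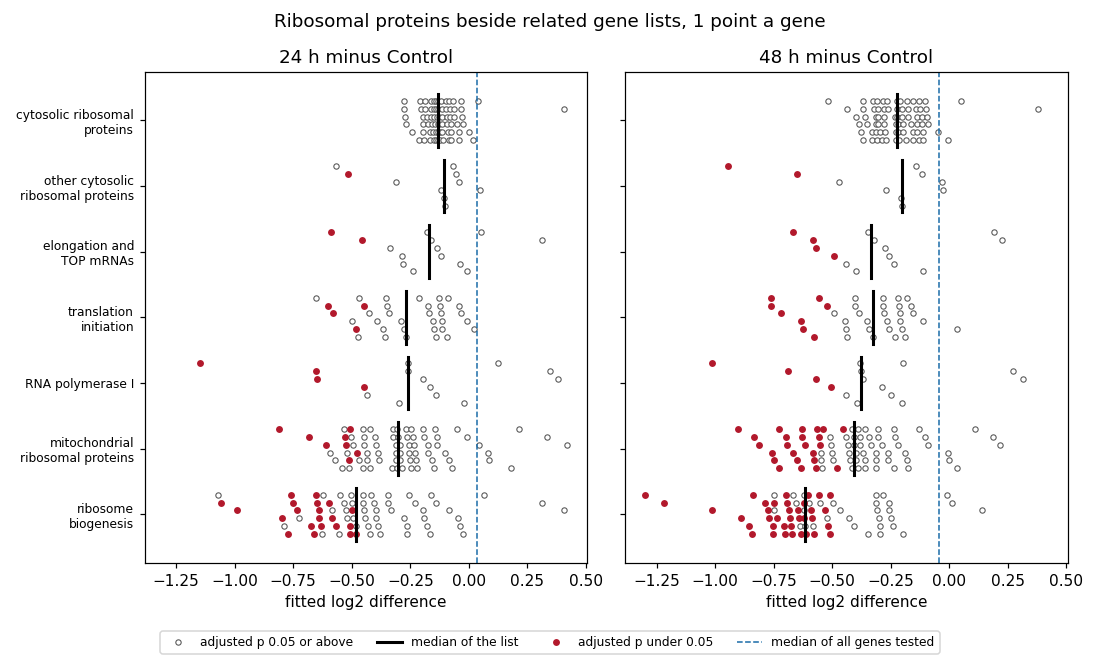
Fitted log2 difference from Control at 24 h (left) and 48 h (right) for each gene of 7 lists, 1 point a gene, filled red where the adjusted p was under 0.05, with a black bar at the median of each list and a dashed line at the median of all genes tested. The ribosomal proteins form a narrow band with no red point, with medians of -0.13 and -0.22, and the ribosome biogenesis genes are spread lower, with medians of -0.48 and -0.62.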

How the data were processed

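For each array the authors deposited Feature Extraction 11.0.1.1 output, whose background-subtracted signal, a linear intensity not normalized between arrays, was used (annotation mm9). The authors also deposited log2 values, an alternative here. Flagged spots were left out, spots of a probe averaged, log2 taken and the array's 75th percentile subtracted; the brightest probe stood for a gene. Genes whose probe exceeded background on the 2 arrays of at least 1 group were tested in R 4.3.3 with limma 3.58.1 (lmFit, eBayes, 2-sided), all 6 arrays in one fit (3 residual, 2.39 prior degrees of freedom), and called at a Benjamini-Hochberg adjusted p under 0.05. The procedure was tested on simulated data. The number of arrays limits the precision. Named genes were the 3 largest differences in each direction per comparison, the 5 brightest and 5 dimmest, listed paralogs and regulators, and 3 genes per related list. Members and lists were chosen with earlier results of these data known. Start windows came from RefSeq; no protein sequences were used here. Some items are not reported here. Fitting each probe alone and leaving out Rps27 and Rps29 were chosen after seeing the data; the other alternatives are described in the closing section.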

Additional observations from a re-analysis of the deposited data

Results flagged for a closer look

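Among 325 genes of the lists used here, 1 had both 24 h arrays on one side of both Control arrays and both 48 h arrays on the other. Rps6ka4, an RSK family kinase that phosphorylates histones and is no ribosomal protein, read 2.97 and 2.91 in Control, 3.11 and 3.40 at 24 h and 2.70 and 2.82 at 48 h. The 48 h arrays were lower than the 24 h arrays by a log2 difference of -0.49 ± 0.14 (limma adjusted p = 0.246), which missed the threshold.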

How the results depend on the processing

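Of 17 kinds of alternative, none turned the sign of the members' median at 24 h or 48 h. The median at 24 h was -0.049 with quantile normalization, -0.41 with median centring, -0.060 with the percentile of detected probes and -0.056 with normexp then quantile normalization. Leaving out each array gave -0.21 to -0.030. At 48 h these settings gave -0.11, -0.32, -0.15 and -0.11, spike-in scaling gave -0.30, and leaving out arrays gave -0.32 to -0.14. From 24 h to 48 h the median was 0.077 with median centring and -0.14 to -0.075 with arrays left out. Less the median of all genes, which median centring moved to -0.25 at 24 h, the members' median over 8 scalings lay between -0.17 and -0.038 at 24 h and between -0.20 and -0.060 at 48 h. Median centring called 2 members at 24 h (all genes 19.9%), Rpl4 among them. At 48 h, 5 were called after normexp and the percentile (all genes 19.4%) and 1 after normexp and quantile normalization (all genes 18.3%). Among genes detected on all 6 arrays 1 was called (all genes 19.3%), and 20 with an intensity trend (all genes 22.2%). Rps27l was called in each of these settings. With arrays left out 0 were called in any comparison. Calls over all genes were 3446 at 24 h and 3433 at 48 h. They were 1310 and 861 when dim probes were kept, 1074 and 2108 with the slide as a block, 2083 and 1854 with spike-in scaling, and 0 by the t-test after adjustment. With an intensity trend 5474 genes were called at 48 h. With only the 4 arrays compared 2108 were. Between the times 0 genes were called, and up to 287 under the alternatives (normexp then quantile normalization). At 24 h 1972 genes were called higher and 1474 lower, with median centring 1193 and 3706, with the percentile of detected probes 2209 and 955, with spike-in scaling 1443 and 640, and with normexp 2063 and 2338 or, with quantiles, 1814 and 2065. At 48 h 1616 were higher and 1817 lower, with the percentile of detected probes 1693 and 1153, with dim probes kept 653 and 208, after normexp 1830 and 2941, with an intensity trend 2060 and 3414 and without Control replicate 2 686 and 246. With 1 array left out, between 897 and 2535 genes were called at 24 h and between 882 and 2108 at 48 h.

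The labels do not say whether same-numbered replicates come from the same experiment. Their deviations from the group means correlated across genes at 0.13, 0.094 and 0.20. With the replicate block 0 members were called at 24 h, 0 at 48 h and 0 between the times, and 3797 and 3965 genes in all against Control. No exact test over 2 arrays against 2 can go below p = 0.333. Over all alternatives, 187 of 418 values of the 19 related genes named and called at 24 h lost their call, as did 144 of 440 for the 20 at 48 h, and 0 called values changed sign. The medians of the related lists were below 0 at both times under every alternative run, except the MYC network at 24 h, at 0.11 without Control replicate 2.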
